A study of Mus musculus with 12 samples.

Results

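The neutrophil chemokines and neutrophil genes described here are 10 genes: the chemokines Cxcl1, Cxcl2, Cxcl3 and Cxcl5, their receptor gene Cxcr2, the calprotectin genes S100a8 and S100a9, Retnlg, and the growth factor Csf3 with its receptor gene Csf3r. They were chosen by symbol, and all 10 were found among the 23282 lines of the count table. A filter on low counts left 13464 genes for testing. 9 of the 10 members were among them, and Csf3 was not.

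RNA was taken from MC38 tumors, grown from a mouse colon carcinoma line under the skin of the right flank in female wild-type C57BL/6 mice obtained at 6 weeks of age. The 4 groups were Con (saline and an IgG2a antibody), SFIH (a fraction of the roots of Inula helenium rich in sesquiterpene lactones, 50 mg/kg into the peritoneum each day), PD (anti-PD-1 antibody, 200 μg per injection) and Comb (both agents). Each group had 3 tumors, collected on day 19, with a separate library for each tumor, and the RNA came from whole tumor tissue although the labels call the samples tumor cells. In such bulk RNA, fewer cells of a type and less RNA per cell cannot be told apart.

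Neutrophils are short-lived granulocytes that are made in the bone marrow and leave the blood along gradients of ELR+ CXC chemokines. In mice these include the products of Cxcl1, Cxcl2, Cxcl3 and Cxcl5, which act on CXCR2 and are made by tumor cells, fibroblasts, macrophages and neutrophils themselves. G-CSF, the product of Csf3, drives granulocyte production through the receptor encoded by Csf3r. S100A8 and S100A9 pair to form calprotectin, the most abundant protein of the neutrophil cytosol, and in tumors such cells are known both to damage tumor cells and to restrain T cells.

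The total count of a tumor lay between 7870741 and 12261032. Levels are given as CPM, the counts of a gene per 1000000 counts of the tumor, or as log2(CPM + 1) with mean ± SD, and since the libraries copy 3′ ends the counts were not divided by gene length. At this depth 3 counts correspond to about the lowest level that can be told from 0, so a gene at 0 counts is below that level and not shown to be absent. Several libraries stood apart in genes of other tissues, PD replicate 2 and Comb replicate 3 the most. PD replicate 2 held genes of the lung epithelium, with 10188 counts of Scgb1a1, 1135 of Sftpc, 450 of Sftpb and 437 of Sftpa1, whereas the other 11 tumors had 0 counts of the surfactant genes Sftpa1, Sftpb and Sftpc and at most 63 of Scgb1a1. The summed level of 10 lung genes, looked up after the counts had been seen, was 1659 CPM in that tumor and 6.76 to 85.1 in the others. Comb replicate 3 had the highest summed levels of skeletal muscle genes (7995 CPM, 14.5 to 1074 elsewhere), of keratinocyte and skin genes (568 CPM, 15.3 to 153 elsewhere) and of monocyte and macrophage genes (20739.9 CPM, 1043 to 7681 elsewhere). Muscle genes were also high in Comb replicate 1 (1074 CPM) and PD replicate 1 (230.0 CPM), and keratinocyte genes in SFIH replicate 1 (153 CPM).

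Cxcl1, Cxcl2 and Cxcl3 are close relatives that lie in a cluster on chromosome 5 with Cxcl5, and each encodes a ligand of CXCR2. Their promoters are shown because the NF-kB element, through which inflammatory stimuli are known to induce these genes, can be read in all of them. In RefSeq's windows of 250 bases before to 50 after each gene's start (GRCm38.p6), the longest stretch of letters that the 3 genes share before their starts is GGGAATTTCCC, 11 bases that hold an NF-kB pattern. It was picked from these windows, so that its presence there is no result. Searched on both strands, it was in 14 of all 32851 windows (0.0426%) and in none of those of Cxcr2, S100a8, S100a9, Csf3r or Retnlg. It begins 71 bases before the start of Cxcl1, 97 before that of Cxcl2 and 73 before that of Cxcl3. The 110 bases before each start are given on the plus strand, chr5:90891135-90891244 for Cxcl1, chr5:90903789-90903898 for Cxcl2 and chr5:90785991-90786100 for Cxcl3, with the shared stretch in capitals.
Cxcl1: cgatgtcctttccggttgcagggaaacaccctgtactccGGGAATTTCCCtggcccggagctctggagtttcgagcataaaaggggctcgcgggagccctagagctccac
Cxcl2: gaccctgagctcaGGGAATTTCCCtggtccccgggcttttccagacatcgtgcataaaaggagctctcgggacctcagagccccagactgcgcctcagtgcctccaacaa
Cxcl3: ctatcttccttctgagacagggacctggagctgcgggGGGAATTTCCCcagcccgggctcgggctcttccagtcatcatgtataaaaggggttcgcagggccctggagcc
A match of letters is a description of the sequence and does not show that a factor was bound in these tumors. With the windows aligned on this stretch and no gaps, 49.2% of 63 bases were identical between Cxcl1 and Cxcl2, and 41.4% of 87 between Cxcl1 and Cxcl3. These bases include the 11 of the stretch, which are identical by choice, and they stop short of the gene starts.

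Cxcl1, the most abundant of the first 3 ligands, was at 11.7, 16.3 and 16.2 CPM in Con replicates 1 to 3, at 35.5, 20.6 and 13.9 under SFIH, at 12.8, 21.1 and 6.38 under PD and at 28.2, 10.9 and 3.64 in Comb. The highest tumor was SFIH replicate 1 and the lowest Comb replicate 3, and every group overlapped every other. Of the 4 comparisons of groups that were tested, SFIH against Con had the largest difference, with a log2 fold change of 0.64 and a standard error of 0.59 (edgeR quasi-likelihood test, adjusted p = 1.0, exact permutation test of the levels p = 0.3). The values within Comb spanned the range of nearly all 12 tumors, with an SD of 1.33 on the log2(CPM + 1) scale against 0.26 in Con.

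Cxcl2, known as a chemokine of activated macrophages and neutrophils, was at 9.22, 6.14 and 3.79 CPM in Con, 6.36, 5.86 and 3.99 under SFIH, 2.15, 14.2 and 1.78 under PD and 4.46, 2.74 and 2.28 in Comb. PD held both the highest and the lowest of the 12 tumors, replicates 2 and 3. In Comb, 2 of the 3 tumors were under all of Con, and the log2 fold change was -0.79 with a standard error of 0.72 (edgeR, adjusted p = 0.487). The difference between PD and Con was 0.06 with all tumors and -1.65 without PD replicate 2, the tumor with lung genes.

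Cxcl3 was the least abundant ligand, and its counts are given in place of CPM. They were 5, 10 and 13 in Con, 38, 44 and 14 under SFIH, 0, 4 and 0 under PD and 8, 3 and 0 in Comb. All SFIH tumors were above all Con tumors, while PD and Con met at 5 and 4 counts only through scaling, with levels of 0.456 CPM in the lowest Con tumor and 0.508 in the highest PD tumor. Summed over the groups, the ratio of SFIH to Con was 3.07 (exact 95% interval 2.0 to 4.86, counting error only). The edgeR log2 fold change was 1.52 with a standard error of 0.997 (adjusted p = 1.0), and the exact permutation test gave p = 0.1, the smallest that 3 tumors against 3 can give. Between PD and Con it was -2.34 with a standard error of 1.23 (edgeR, unadjusted p = 0.083, adjusted p = 1.0). Without PD replicate 2 the remaining PD tumors were at 0 counts, so that no fold is given. The transcripts of Cxcl2 and Cxcl3 share 36 windows of 75 identical bases near their 5′ ends, and none in the last 300 bases of Cxcl2.

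Cxcl5, a chemokine made mainly by epithelial and stromal cells, was at 28.9, 8.84 and 8.08 CPM in Con, 17.5, 14.1 and 11.9 under SFIH, 7.74, 35.3 and 6.9 under PD and 28.3, 10.2 and 8.56 in Comb. Con, PD and Comb each had 1 tumor near 30 CPM and 2 at about 10 or less, and the 3 SFIH tumors lay between. The group means of 3.80, 3.94, 3.76 and 3.87 on the log2(CPM + 1) scale differed by far less than the SD within groups, which was 0.90 when pooled over the groups. The edgeR log2 fold changes ranged from -0.11 in SFIH to 0.25 in PD against Con, with standard errors of 0.70. Without PD replicate 2 the value for PD was -1.02, and without Con replicate 1 it was 1.13.

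**Figure D1:**
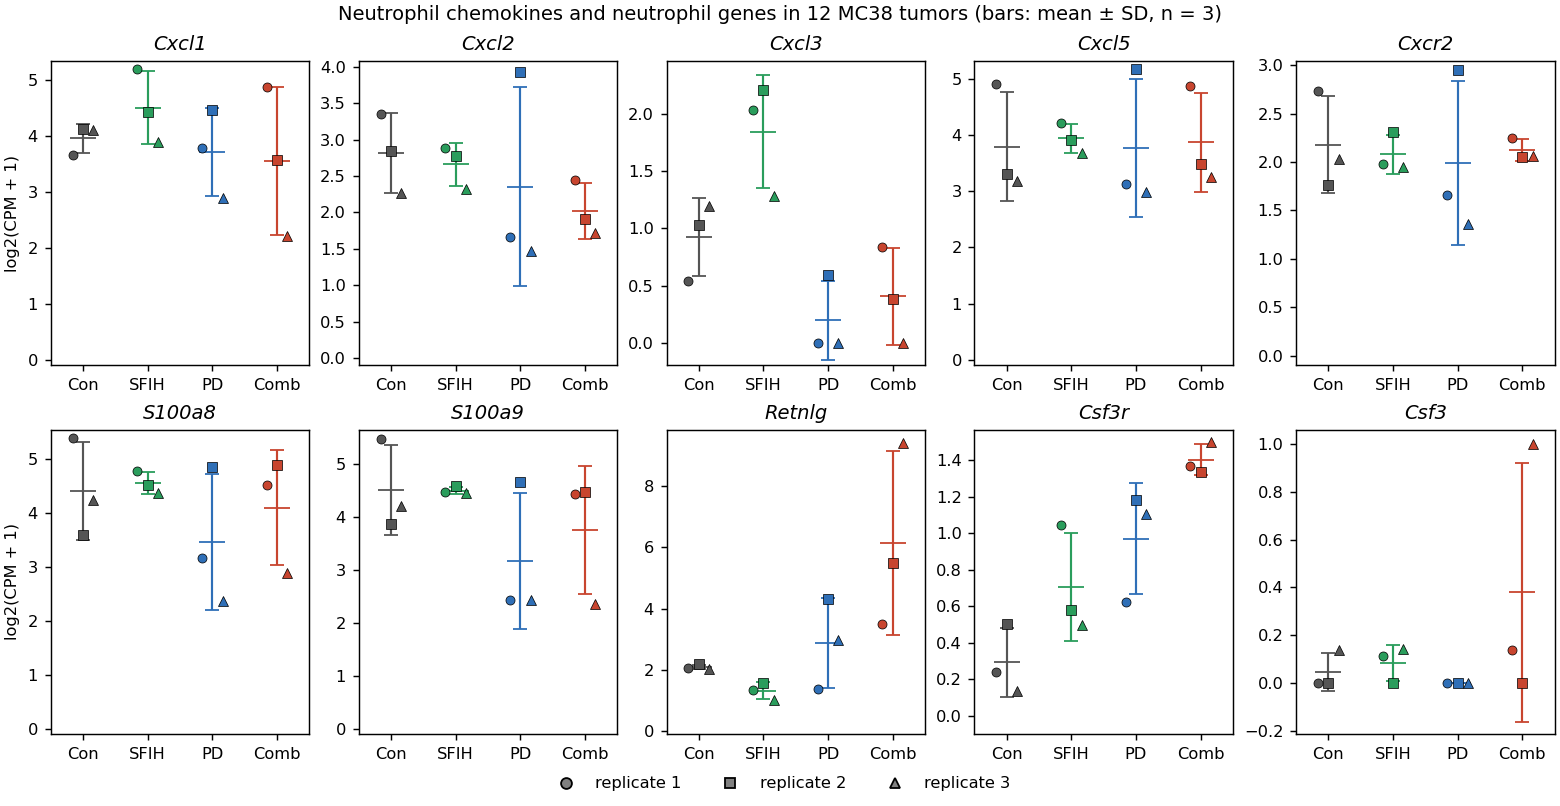
Levels of the 10 genes as log2(CPM + 1) in each tumor, with the group on the horizontal axis, 1 point a tumor (circle, square and triangle for replicates 1, 2 and 3), and bars for mean ± SD of 3 tumors. Con replicate 1 and PD replicate 2 are the highest of their groups for Cxcl2, Cxcl5, Cxcr2, S100a8 and S100a9, and Csf3r steps up from Con to Comb.

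Cxcr2, which encodes the receptor of all 4 chemokines and is found mainly on mature neutrophils, was at 5.66, 2.39 and 3.09 CPM in Con, 2.94, 3.96 and 2.86 under SFIH, 2.15, 6.73 and 1.57 under PD and 3.76, 3.15 and 3.19 in Comb. Con replicate 1 and PD replicate 2 were the highest tumors, and the groups overlapped throughout. Comb had the narrowest spread, with an SD of 0.11 around a mean of 2.12 on the log2(CPM + 1) scale, against 0.85 around 1.99 in PD. The log2 fold changes against Con were -0.21 for SFIH, 0.03 for PD and 0.12 for Comb, with standard errors of 0.56 (edgeR, adjusted p from 0.897 to 1.0). The values for PD and Comb turned to -0.10 and -0.14 without TMM scaling, and that for PD was -0.94 without PD replicate 2.

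S100a8 and S100a9, the subunits of calprotectin, lie side by side on chromosome 3 and had the highest medians of the members over the 12 tumors, 20.8 and 20.7 CPM. S100a8 was at 40.9, 11.1 and 17.9 CPM in Con, 26.5, 21.9 and 19.6 under SFIH, 7.96, 28 and 4.18 under PD and 21.9, 28.7 and 6.37 in Comb. S100a9 was at 43.2, 13.5 and 17.5 CPM in Con, 21.1, 22.8 and 20.9 under SFIH, 4.41, 24.3 and 4.39 under PD and 20.5, 21.2 and 4.1 in Comb. PD replicates 1 and 3 and Comb replicate 3 were the lowest 3 tumors for both genes, and 2 of the 3 PD tumors were under all of Con. SFIH was the most even group, with an SD of 0.07 for S100a9 on the log2(CPM + 1) scale against 0.85 in Con, 1.29 under PD and 1.21 in Comb.

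None of the differences in S100a8 or S100a9 passed the test. For PD against Con the log2 fold change was -1.03 with a standard error of 0.75 for S100a9 (edgeR, adjusted p = 1.0) and -0.67 with 0.71 for S100a8. Without PD replicate 2 these values were -2.45 and -1.89, and without Con replicate 1 they were -0.33 and 0.05. The size of the difference thus depended on a single tumor in each group, and for S100a9 it was below 0 under all 13 alternatives. For Comb against Con the values were -0.50 for S100a9 and -0.08 for S100a8, with standard errors of 0.73 and 0.70. Without Comb replicate 3 they were -0.09 and 0.29, and without Con replicate 1 they were 0.21 and 0.64.

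**Figure D2:**
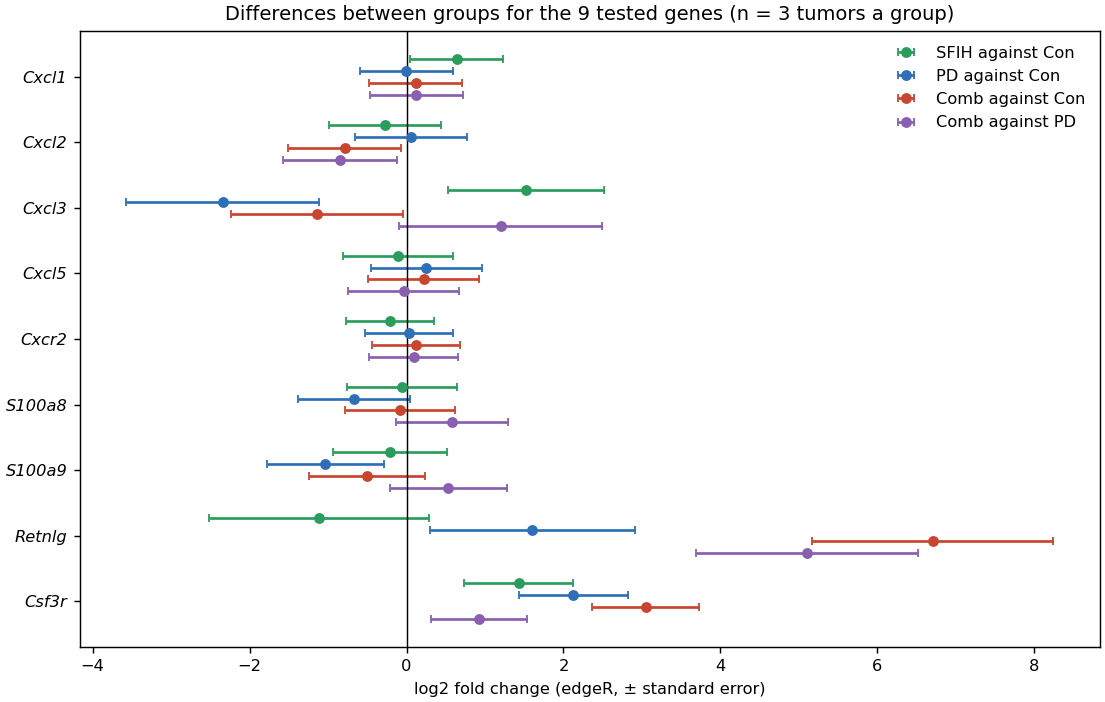
Log2 fold changes of the 9 tested genes (horizontal axis) with their standard errors from edgeR, for SFIH, PD and Comb against Con and for Comb against PD, with 3 tumors a group. Most bars cross or end near 0; those of Retnlg in Comb (6.70 against Con, 5.10 against PD) and of Csf3r in Comb against Con (3.05) lie farthest from it.

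Cxcr2, S100a8, S100a9, Cxcl2 and Cxcl5 varied together from tumor to tumor, mostly within the groups. Over the 12 tumors, Pearson's r of the log2(CPM + 1) values was 0.959 between S100a8 and S100a9 (Spearman's rho 0.951), 0.756 between Cxcr2 and S100a8, 0.762 between Cxcl2 and S100a9, and 0.855 between Cxcl5 and Cxcr2. Without PD replicate 2 and Comb replicate 3 these values were 0.951, 0.896, 0.810 and 0.819. Without the 2 tumors farthest from the median of the first gene they were 0.930, 0.729, 0.769 and 0.660. With each group's mean subtracted, r was 0.962, 0.805, 0.795 and 0.867. The tumors share the depth of their libraries between genes, and these values are a description with no test.

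Cxcl1 and Cxcl3 were most like each other, with r = 0.720, whereas r between Cxcl3 and Cxcr2 was 0.176. Csf3r, although it encodes a receptor of the same cells, had r = -0.008 with Cxcr2 and -0.316 with S100a9, but 0.713 with Retnlg (rho 0.699), 0.653 with Retnlg without PD replicate 2 and Comb replicate 3, and 0.425 with Retnlg once each group's mean was subtracted. The within-group SD was 0.98 for S100a9, against an SD of 0.65 between the 4 group means, and 0.24 against 0.46 for Csf3r. Most of the variation of S100a9 was thus between tumors of the same treatment, and that of Csf3r was between treatments.

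**Figure D3:**
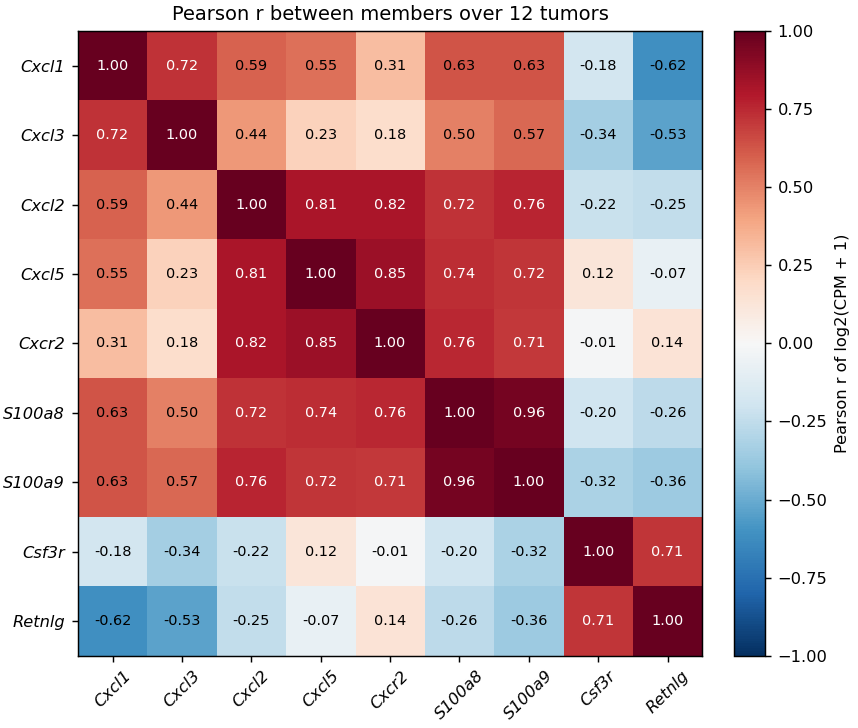
Pearson's r of log2(CPM + 1) between each pair of the 9 tested genes over the 12 tumors, written in each cell and coloured from -1 (blue) to 1 (red). Cxcl2, Cxcl5, Cxcr2, S100a8 and S100a9 form a block with values from 0.71 to 0.96, outside which Csf3r and Retnlg lie.

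Among 10594 other genes with a mean of at least 50 counts, those most like S100a9 over the 12 tumors were Rnf125, a ubiquitin ligase gene (r = 0.899), Gsta2, a glutathione transferase gene (0.883), 1700019B21Rik (0.862), Pde5a, a cyclic GMP phosphodiesterase gene (0.861), and Egfl7, an endothelial gene (0.859). Without Comb replicate 3 these were between 0.808 and 0.904. Those most like Cxcl2 were Znhit1 (0.841), Dxo (0.819), Smox, a spermine oxidase gene (0.810), Zmym2 (0.799) and Dusp4, a phosphatase gene of the MAP kinase pathway (0.782). Neither set of 5 held a neutrophil gene of the lists described below. They were chosen as the highest of 10594 values over 12 tumors, and they carry no test.

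Retnlg encodes a resistin-like protein, RELMγ, that is known as a marker of mouse neutrophils, and it lies next to Retnla on chromosome 16, which encodes RELMα, a product of alternatively activated macrophages and of lung and fat tissue. The stretch in which the 2 transcripts are most alike is shown because the counts of 1 gene could take up reads of the other. It holds 75 bases, the length of a read, of the plus strand of exon 2 within the coding sequence (GENCODE M21, GRCm38), at chr16:48872874-48872948 for Retnlg and chr16:48842811-48842885 for Retnla, and the 3 bases that differ are in capitals.
Retnlg: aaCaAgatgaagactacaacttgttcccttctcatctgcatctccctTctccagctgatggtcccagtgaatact
Retnla: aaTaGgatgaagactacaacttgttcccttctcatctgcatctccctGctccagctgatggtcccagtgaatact
No window of 75 bases of Retnlg was identical to one of Retnla. In the last 300 bases of the Retnlg transcript, from which 3′ libraries draw most of their reads, the nearest window of Retnla differed at 12 or more bases. How reads were matched and shared between genes is not given in the sources used here.

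Retnlg was at 3.19, 3.54 and 3.09 CPM in Con, 1.55, 1.98 and 1.02 under SFIH, 1.61, 18.9 and 6.8 under PD and 10.4, 43.6 and 688 in Comb. The Con tumors lay close together, all SFIH tumors were below them, all Comb tumors were above them, and PD spanned both sides. Retnla was at 8.39, 17.7 and 5.59 CPM in Con, 1.79, 2.06 and 15.1 under SFIH, 9.57, 114 and 62.8 under PD and 23.4, 1560.0 and 40128 in Comb. In Comb replicate 3 Retnla took 4.01% of all counts. Over the 12 tumors r between Retnlg and Retnla was 0.961 (rho 0.846), and it was 0.785 without the 2 tumors farthest from the median of Retnlg.

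**Figure D4:**
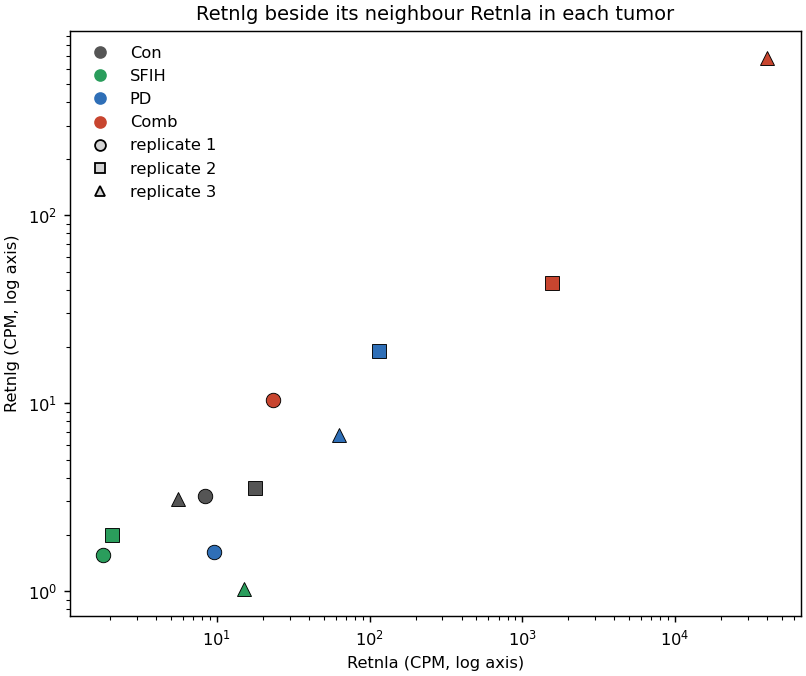
Retnlg (vertical axis) against Retnla (horizontal axis) in CPM on log axes, 1 point a tumor, coloured by group and shaped by replicate. Comb replicates 2 and 3 lie at the upper right, at 43.6 and 688 CPM of Retnlg, and PD replicate 2 follows at 18.9.

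For Comb against Con, the log2 fold change of Retnlg was 6.70 with a standard error of 1.53 (edgeR, adjusted p = 0.0665, DESeq2 adjusted p = 2.55e-05), higher in 3 of 3 tumors. Over the alternatives the edgeR and DESeq2 values lay between 3.27 and 7.27, and the adjusted p between 2.55e-05 and 0.334. Without Comb replicate 1 it was 7.27, and the edgeR adjusted p was 0.004. Without Comb replicate 3 the log2 fold change was 3.27 (edgeR, adjusted p = 0.101) or 3.30 (DESeq2, adjusted p = 0.00183). For Comb against PD it was 5.10 with a standard error of 1.41 (edgeR, adjusted p = 0.243, DESeq2 adjusted p = 0.0109), 1.67 without Comb replicate 3 (edgeR, adjusted p = 0.547), 6.28 without PD replicate 2, and 5.68 without Comb replicate 1, where the edgeR adjusted p was 0.0235. The DESeq2 call for Comb against PD was lost without Comb replicate 3, where DESeq2 gave 1.68 and no adjusted p. The values for SFIH and for PD against Con were -1.11 and 1.60, with standard errors of 1.40 and 1.31. Without replicate 2 the PD value was 0.40. The SFIH by anti-PD-1 interaction was 6.22 for Retnlg (edgeR, unadjusted p = 0.00817, adjusted p = 0.894). It was 2.78 without Comb replicate 3 and 7.39 without PD replicate 2. The summed level of 17 monocyte and macrophage genes was, like Retnlg, highest in Comb replicate 3, at 1043 to 1831 CPM in Con, 1735 to 1906 under SFIH, 1962 to 4415 under PD and 2067 to 20739.9 in Comb. Under SFIH its median was above that of Con, whereas Retnlg was lower in all 3 SFIH tumors than in Con. The part of macrophages in the result was not tested, nor was that of reads from Retnla.

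Csf3, which encodes G-CSF, had 0, 0 and 1 counts in Con, 1, 0 and 1 under SFIH, 0, 0 and 0 under PD and 1, 0 and 11 in Comb. Its RNA was at or under 3 counts in 11 of the 12 tumors, so that no difference between groups was detectable at this depth. The exception was Comb replicate 3. Csf2, which encodes GM-CSF, and Il17a, which encodes the T cell cytokine that induces G-CSF, had 0 counts in all 12 tumors.

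Csf3r, which encodes the G-CSF receptor, had 2, 4 and 1 counts in Con, 13, 6 and 4 under SFIH, 5, 10 and 11 under PD and 16, 15 and 20 in Comb. In CPM the 3 Comb tumors, at 1.58, 1.52 and 1.82, were above all others, the PD tumors at 0.538, 1.27 and 1.15 were above Con, and SFIH at 1.06, 0.495 and 0.409 overlapped Con only at 0.409 and 0.416. Summed over the groups, the ratio of Comb to Con was 7.21 (exact 95% interval 3.26 to 18.8), that of PD to Con 4.25 (1.80 to 11.6) and that of SFIH to Con 2.94 (1.22 to 8.12), with counting error only and the same 7 counts of Con behind all of them. The mean level of log2(CPM + 1) was 0.29 ± 0.19 in Con, 0.71 ± 0.29 under SFIH, 0.97 ± 0.30 under PD and 1.40 ± 0.08 in Comb (SD, n = 3). In this order SFIH and PD overlapped, as did Con and SFIH.

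For Comb against Con the log2 fold change of Csf3r was 3.05 with a standard error of 0.69 (edgeR, adjusted p = 0.0665, DESeq2 adjusted p = 0.00329), higher in 3 of 3 tumors. It lay between 2.68 and 3.71 over the alternatives, with adjusted p from 0.00329 to 0.334, and past the threshold in 3 of 13. Without Comb replicate 1 the edgeR adjusted p was 0.0137. Without Comb replicate 3 it was 2.84 (edgeR, adjusted p = 0.109) or 2.93 (DESeq2, adjusted p = 0.0479). Between PD and Con it was 2.12 with a standard error of 0.69 (edgeR, unadjusted p = 0.0106, adjusted p = 1.0), and 1.85 without PD replicate 2. For SFIH against Con it was 1.43 with 0.69, and for Comb against PD 0.92 with 0.61 (edgeR, adjusted p = 0.407). The exact permutation test gave p = 0.1, its smallest value, for PD and for Comb against Con and for Comb against PD. The macrophage genes given for Retnlg also moved with Csf3r, and their part in this result was not tested.

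The members' counts stood in a background that differed between the comparisons, which share the Con tumors or the Comb tumors. For SFIH against Con, edgeR called 0% of the 13464 genes at an adjusted p under 0.05, 2.25% had an unadjusted p under 0.05, and DESeq2 called 0.0105% of the genes to which it gave an adjusted p, or 2 genes. Of the 9 members tested, 0 had an unadjusted p under 0.05 and DESeq2 called 0. The groups did not overlap in 7.55% of all genes with SFIH higher and in 8.85% with SFIH lower, against 1 member in each direction, Cxcl3 and Retnlg.

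For PD against Con, edgeR called 0% of the genes, 3.99% had an unadjusted p under 0.05, and DESeq2 called 0.0105%. Csf3r alone among the members had an unadjusted p under 0.05, and DESeq2 called 0 members. PD was wholly above Con in 5.76% of all genes and below it in 14.8%, against 1 member (Csf3r) and 0 members. Without PD replicate 2, 4 members had an unadjusted p under 0.05 with a lower value (Cxcl2, Cxcl3, S100a8 and S100a9) and 1 with a higher value (Csf3r), edgeR called 0 of them after adjustment, and the share of all genes under 0.05 was 3.94%.

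For Comb against Con, edgeR called 0% of the genes, 25.3% had an unadjusted p under 0.05, and DESeq2 called 13.8%, or 2056 genes. The 2 members below 0.05 unadjusted and called by DESeq2 were Csf3r and Retnlg. Comb was wholly above Con in 7.6% of all genes and below it in 22.2%, against the same 2 members and 0 members. For Comb against PD, edgeR called 0%, 18% had an unadjusted p under 0.05, and DESeq2 called 2.81%, or 399 genes, with Retnlg the 1 member in both of the latter. Comb was wholly above PD in 4.25% of all genes, Csf3r among them, and below it in 8.42%, with 0 members. Without PD replicate 2, Comb had the higher value in all 9 members tested, 4 of them (Cxcl3, S100a8, S100a9 and Retnlg) with an unadjusted p under 0.05, beside 18.6% of all genes, and their median log2 fold change was 1.23 in place of 0.53, with Cxcl3 at 0 counts in both remaining PD tumors. With Comb replicate 3 left out instead, edgeR put 0 members under 0.05 unadjusted, beside 9.02% of all genes, and DESeq2 called 0. For the interaction, edgeR called 0% and 2.55% had an unadjusted p under 0.05, with Retnlg the 1 member. A share of 2 in 9 members for Comb against Con was thus no larger than the share of all genes with an unadjusted p under 0.05.

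The other genes of the CXCR2 and G-CSF pathways, 32 receptors, cytokines and signaling genes of which 27 were tested, had a higher median fold change than the members for Comb against Con but not for Comb against PD (0.46 and 0.53). Against Con, 14 had an unadjusted p under 0.05 with a higher value and 1 with a lower value, and DESeq2 called 10 and 1, beside 25.3% and 13.8% of all genes, while edgeR called 0 after adjustment. Their median log2 fold change was 0.86, beside -0.03 for all genes and 0.12 for the 9 members. Without Comb replicate 3, 11 and 1 were under 0.05, beside 18.8% of all genes, and the median was 0.75. In the same comparison 15 of 16 tested monocyte and macrophage genes and 8 of 9 fibroblast genes were under 0.05 with a higher value, with medians of 2.97 and 2.58, and 14 and 7 without Comb replicate 3. Their part in the values of the list was not tested. Ackr1, which encodes a receptor that takes up chemokines without signaling, had the smallest p of the list, with a log2 fold change of 4.91 and a standard error of 0.82 (edgeR, adjusted p = 0.0665, DESeq2 0.000126). It had 0, 2 and 1 counts in Con, 7, 5 and 4 under SFIH, 7, 4 and 8 under PD and 21, 48 and 16 in Comb, so that all 3 treated groups lay above Con. Its Con counts were under the 3 counts that can be told from 0, so its folds against Con are imprecise. For PD against Con, 5 genes of the list were under 0.05 unadjusted with a higher value and 1 with a lower value, beside 3.99% of all genes, and 4 and 0 without PD replicate 2, beside 3.94%. Those with the smallest p were Ackr1 (2.76), Cxcl12 (1.77), the IL-17 receptor gene Il17ra (0.66) and Csf2ra (1.48). For SFIH against Con these were Stat3, which encodes the factor that G-CSF activates (-0.45), Il17ra (0.52), Ackr1 (2.08) and Ccrl2 (0.83). For Comb against PD they were Ackr1 (2.15), Sdcbp (1.33), and the C/EBP genes Cebpd (1.49) and Cebpe (4.59). With Comb replicate 3 left out, these were 2.40 for Ackr1, 0.66 for Sdcbp, 0.53 for Cebpd and 0.11 for Cebpe, which was at 51.6 CPM in that tumor and at most 2.03 in the others. None of the genes named for these 3 comparisons passed the adjusted threshold in edgeR or DESeq2, which gave no adjusted p for Cebpe.

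Cxcl12, the chemokine that holds neutrophils in the bone marrow, was at 3.28, 7.07 and 4.89 CPM in Con, 5.46, 8.33 and 13.4 under SFIH, 10, 24.4 and 13.6 under PD and 15.9, 41.5 and 34.3 in Comb. Comb and PD lay above Con, with log2 fold changes of 2.91 (standard error 0.57, edgeR adjusted p = 0.0665, DESeq2 2.51e-05) and 1.77 (standard error 0.55, edgeR adjusted p = 1.0). The GM-CSF receptor genes Csf2ra and Csf2rb followed for Comb against Con, at 2.52 and 2.44 with standard errors of 0.54 and 0.57 (DESeq2 adjusted p = 0.000203 and 0.000661), and at 1.78 and 1.58 without Comb replicate 3, the highest tumor for both. Il1b, an inflammatory cytokine gene upstream of the chemokines, was at 50.6, 18 and 38.2 CPM in Con, 46.6, 30.8 and 26.7 under SFIH, 36.6, 70.3 and 28.8 under PD and 48.6, 57.3 and 20.3 in Comb, with overlap of all groups. Cxcr1, which encodes the other receptor of this family, had counts in Con replicate 1 alone, and Cxcl15, known as lungkine, had 156 counts in PD replicate 2 and at most 3 elsewhere.

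Genes of the neutrophil granules differed widely in their counts. Mpo, which encodes myeloperoxidase, had 1 count in SFIH replicate 1 and 0 in the other 11 tumors. Elane, which encodes neutrophil elastase, had at most 3 counts, and Camp, which encodes cathelicidin, at most 6, in a single tumor. These 3 genes are transcribed mainly in precursors in the bone marrow. The stage at which the granule genes named next are transcribed was not looked at, and no contrast of stage is drawn. Other granule genes, named after their values were seen, were counted in every tumor, with 16 to 93 counts of Prtn3, which encodes proteinase 3, 243 to 787 of Mmp9 and 8 to 92 of Mmp8, which encode matrix metalloproteinases. Ltf, which encodes lactoferrin, and Ctsg, which encodes cathepsin G, had 88 and 27 counts in Comb replicate 3 and at most 9 and 6 elsewhere. Ly6g was looked for by symbol and was not found in the count table. Of 40 other neutrophil genes, 39 were in the table and 23 were tested.

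Lcn2, which encodes lipocalin 2 and is made by neutrophils and epithelial cells, was at 6.39, 2.91 and 3.09 CPM in Con, 3.34, 3.38 and 3.17 under SFIH, 1.18, 1.02 and 1.05 under PD and 1.68, 1.93 and 1.09 in Comb. All 6 tumors given anti-PD-1 were below all 6 others, a split that was not tested and whose share over all genes was not counted. PD was wholly below Con in 14.8% of all genes, and Comb was wholly below Con in 22.2%. Lcn2 had 8 to 19 counts in the PD and Comb tumors. The log2 fold change of Lcn2 was -1.83 with a standard error of 0.44 for PD against Con (edgeR, unadjusted p = 0.00141, adjusted p = 1.0, DESeq2 adjusted p = 0.242), and -1.15 with 0.42 for Comb against Con (edgeR, adjusted p = 0.127). It was -1.83 for PD also without PD replicate 2. This small spread in PD is unlike that of S100a8 and S100a9, which went from 4.18 to 28 and from 4.39 to 24.3 CPM in the same tumors.

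Chil3, which encodes the chitinase-like protein Ym1 of neutrophils and alternatively activated macrophages, was at 6.02, 2.6 and 4.89 CPM in Con, 15.8, 13.7 and 11.3 under SFIH, 10.4, 20.8 and 15.3 under PD and 32.4, 64 and 188 in Comb. Each treated group lay wholly above Con, and Comb lay wholly above the others. The log2 fold change for Comb against Con was 4.79 with a standard error of 0.70 (edgeR, adjusted p = 0.0665, DESeq2 1.88e-10), and it was 3.61 without Comb replicate 3, where the edgeR adjusted p was 0.0282. Over the 23 genes tested, 11 had an unadjusted p under 0.05 with a higher value in Comb than in Con and 1 with a lower value, and DESeq2 called 9 and 0, beside 25.3% and 13.8% of all genes. Without Comb replicate 3 these were 7 and 1 by edgeR, beside 18.8% of all genes. With all tumors, 15 of 16 tested macrophage genes were under 0.05 with a higher value, and the median of the 16 was 2.97. The part of macrophages in this list was not tested. Beside Chil3, those named here are Pglyrp1, which encodes a granule protein that binds peptidoglycan (4.27), and Hdc, which encodes histidine decarboxylase (1.06). For Pglyrp1 the value was 1.54 without Comb replicate 3. Between PD and Con, 2 were under 0.05 unadjusted with a higher value, Chil3 (1.89) and the leukotriene B4 receptor gene Ltb4r1 (2.09), and Lcn2 with a lower value, beside 3.99% of all genes. With PD replicate 2 left out, Ltb4r1 was at 1.11 (unadjusted p = 0.152 in edgeR), and the list had 1 gene under 0.05 with a higher value, Chil3, and 2 with a lower value, Lcn2 and Prtn3, of 25 tested and beside 3.94% of all genes. For SFIH against Con, Chil3 alone of the 23 was under 0.05 (1.57), beside 2.25% of all genes.

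**Figure D5:**
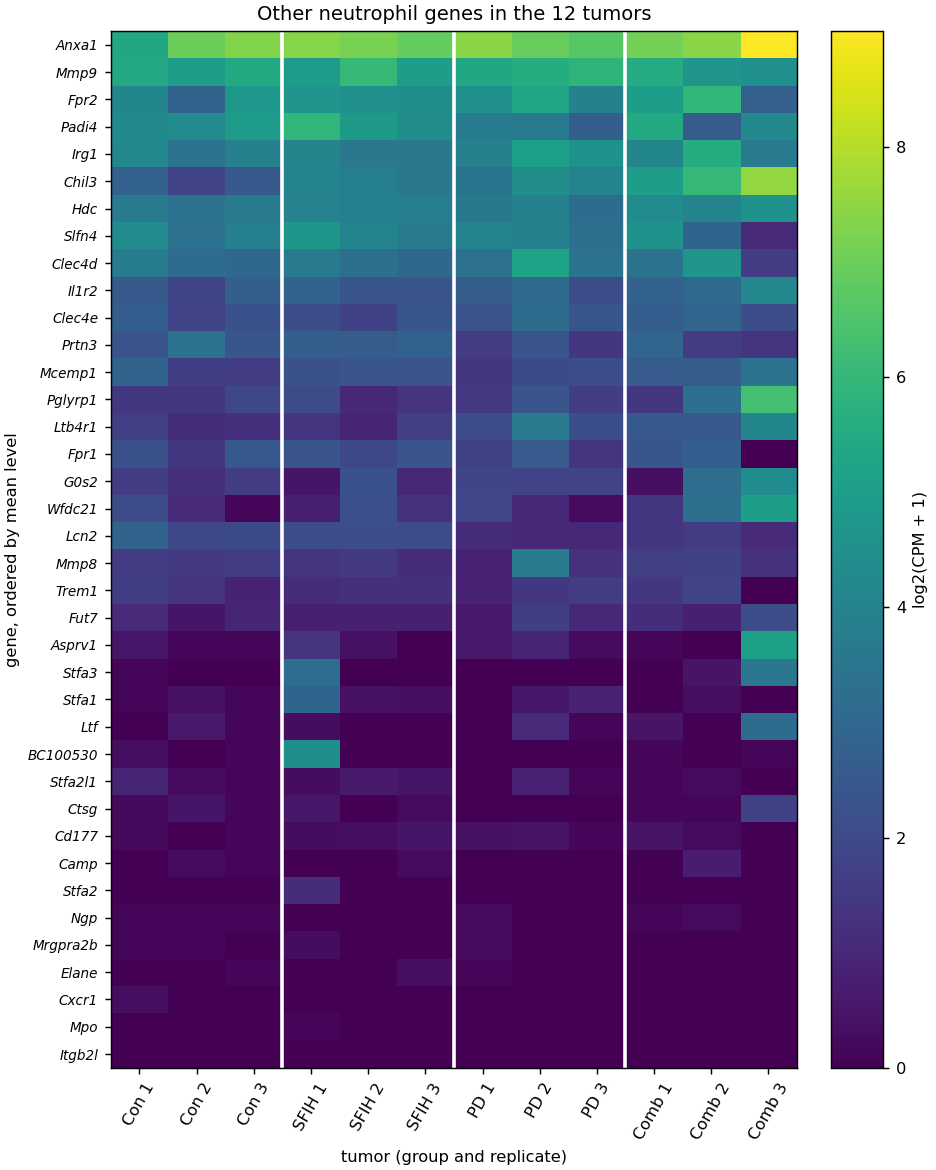
Heat map of log2(CPM + 1) for 38 of the 39 other neutrophil genes in the table (rows, ordered by mean level) in the 12 tumors (columns, by group and replicate). Mpo, Elane, Camp and Ngp are near 0 in every tumor, Chil3 is highest in Comb, and SFIH replicate 1 alone shows BC100530.

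SFIH replicate 1 carried a further group of genes. BC100530, a gene of the stefin A family that is known from neutrophils and skin, was at 21.5 CPM there and at most 0.274 CPM in the other 11 tumors. Stfa3, of the same family, was at 8.48 CPM there, at 10.9 CPM in Comb replicate 3 and at most 0.406 CPM in the other 10. Keratinocyte genes were high in the same tumor, with Krt14 at 18.4 CPM and Krt5 at 4.4 CPM, and in Comb replicate 3, with Krt14 at 25.3 and Krt5 at 75.9. In the other 10 tumors Krt14 was at most 0.915 CPM. SFIH replicate 1 also had the highest Cxcl1 of the 12 tumors (35.5 CPM), and Comb replicate 3 had the lowest (3.64 CPM). Comb replicate 3 also had the lowest S100a9 (4.1 CPM), and its S100a8 was at 6.37 CPM. S100a8 and S100a9 are made by keratinocytes too, and the part of these cells in their levels was not tested.

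The receptors and partners of calprotectin, 13 genes of which 12 were tested, had higher values in Comb than in Con for 11 genes and a lower value for Ager (-0.14), and edgeR called 0 of them after adjustment. In this comparison 10 of the 12 had an unadjusted p under 0.05 with a higher value and 0 with a lower value, beside 25.3% of all genes, DESeq2 called the same number, beside 13.8%, and the median log2 fold change was 2.0. With Comb replicate 3 left out, 9 were under 0.05, beside 18.8% of all genes, and the median was 1.23. Ncf1, which encodes a subunit of the NADPH oxidase that calprotectin feeds with arachidonic acid, had 2.04 with a standard error of 0.44 (edgeR, adjusted p = 0.0665, DESeq2 0.000338), and 1.55 without Comb replicate 3. Ly96, which encodes the TLR4 partner MD-2, had 2.06, and Myd88, the adaptor gene, had 0.79, and 1.44 and 0.63 without that tumor. These genes are expressed by macrophages as well, whose summed level was highest in Comb replicate 3, and the part of macrophages in these values was not tested. Ager, which encodes the receptor RAGE and is highest in lung, was at 37.2 CPM in PD replicate 2 and at most 4.3 in the other tumors. Its log2 fold change for PD against Con was 3.0 with PD replicate 2 and 0.75 without it.

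T cell genes, 9 of 12 in the table, were summed to 25.1 to 45.7 CPM in Con, 26.5 to 49.3 under SFIH, 43.8 to 113 under PD and 39 to 267 in Comb, so that PD and Comb overlapped. Fibroblast genes were summed to 2265 to 2991 in Con, 1199 to 3568 under SFIH, 4200 to 6547 under PD and 3051 to 18968 in Comb. Endothelial genes lay between 62.4 and 132 CPM in all tumors. The genes listed for epithelial tumor cells were at 88 CPM in Comb replicate 3 and between 4.6 and 22.3 in the other tumors.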

How the data were processed

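The authors deposited raw read counts per gene symbol for 12 tumors, from QuantSeq 3′ libraries read as single ends of 75 bases. The aligner, counter, genome build and annotation are not given in the sources used here. Counts were compared with edgeR 4.0.16 in R 4.3.3 (filterByExpr, TMM, quasi-likelihood test, 1 coefficient a group, all 12 tumors in 1 fit), with Benjamini-Hochberg adjustment over 13464 genes and a threshold of 0.05. DESeq2 1.42.0 was the alternative tool. Levels are log2(CPM + 1) without TMM, with exact two-sided permutation tests in scipy 1.17.1, which cannot go under 0.1 for 3 against 3 tumors. Intervals are exact (Clopper-Pearson) and cover counting error only. The steps were tested on simulated data. The members and the lists of genes were chosen with earlier results of these data known. Some genes that the lists hold are not reported here. The text otherwise names the 10 members, up to 4 genes of each list by smallest p, 9 defining genes and the 5 genes most like S100a9 and Cxcl2. Other named genes, the lung genes and the fits of DESeq2 and of the lists without single tumors were chosen after the values were seen. Identifiers of molecules were not counted. The p-values of edgeR and DESeq2 weigh a difference between groups against the spread between these tumors, which is estimated with the help of other genes.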

Additional observations from a re-analysis of the deposited data

How the results depend on the processing

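No gene passed edgeR's adjusted test in the 5 comparisons with all tumors. DESeq2 called 2 genes for SFIH and 2 for PD against Con, 2056 for Comb against Con, 399 for Comb against PD and 1 for the interaction. In an analysis added after seeing the data, DESeq2 without Comb replicate 3 called 720 for Comb against Con and 25 for Comb against PD. Leaving out 1 tumor gave 0 to 3943 genes for Comb against Con and 0 to 2100 for Comb against PD, both highest without Comb replicate 1, and 5 for Comb against Con without Comb replicate 3. The cause was not tested. With the replicate block 0 genes were called in every comparison. Deviations of same-numbered tumors correlated from -0.29 to 0.41, and 2 of 12 tumors correlated best with their own number. A pairing by number was thus not seen, but so few tumors cannot exclude one.

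Of 45 fold changes of members, 20 kept their sign under every alternative run and 25 did not. With the replicate block the sign turned for Cxcl5 in SFIH (0.071), Cxcl2 (-0.22) and Cxcr2 (-0.12) in PD, Cxcl1 in Comb against Con (-0.19) and Cxcl5 in the interaction (-0.091). Without TMM it turned for Cxcl2 (-0.084) and Cxcr2 (-0.10) in PD, Cxcl1 (-0.048) and Cxcr2 (-0.14) in Comb against Con, Cxcr2 in Comb against PD (-0.041) and Cxcl5 in the interaction (-0.0073). With a mean of at least 50 counts Cxcl1 in PD was 0.0060. With DESeq2 and no Comb replicate 3, S100a8 in Comb against Con was 0.31 and Cxcl5 in Comb against PD 0.19. Leaving out 1 tumor at a time gave, for SFIH against Con, -0.57 to 0.10 for Cxcl2, -0.44 to 0.77 for Cxcl5, -0.44 to 0.25 for Cxcr2, -0.40 to 0.65 for S100a8 and -0.51 to 0.49 for S100a9. For PD against Con it gave -0.55 to 0.34 for Cxcl1, -1.65 to 0.51 for Cxcl2, -1.02 to 1.13 for Cxcl5, -0.94 to 0.49 for Cxcr2 and -1.89 to 0.049 for S100a8. For Comb against Con it gave -0.68 to 0.54 for Cxcl1, -0.35 to 1.10 for Cxcl5, -0.11 to 0.59 for Cxcr2, -0.56 to 0.64 for S100a8 and -0.88 to 0.21 for S100a9. For Comb against PD it gave -0.66 to 0.67 for Cxcl1, -1.30 to 0.85 for Cxcl2, -0.59 to 1.23 for Cxcl5 and -0.28 to 1.06 for Cxcr2. For the interaction it gave -1.30 to 0.029 for Cxcl1, -1.02 to 1.13 for Cxcl2, -1.38 to 3.54 for Cxcl3, -0.80 to 1.34 for Cxcl5, -0.16 to 1.26 for Cxcr2 and -0.065 to 1.86 for S100a8. The 3.54 for Cxcl3 is without PD replicate 2, where both remaining PD tumors had 0 counts, so that it depends on the prior count and is no measured fold. The cause was not tested. Csf3, Csf3r and Cxcl3 rest on few counts, which limits their precision.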
